A study of Mus musculus with 6 samples.

Results

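The genes described here build the antigen presentation pathway of MHC class II: Ciita, Cd74, H2-Aa, H2-Ab1, H2-Eb1, H2-DMa, H2-Oa and H2-Ob. They were chosen by name, as probe sets annotated with a single gene symbol that is one of these, and all 8 were found among the 17097 genes measured, with 16 probe sets in all. The samples were pro-B cells, early precursors of B cells that a sorter had gated as B220+CD43+IgM-, and their RNA was read on Affymetrix mouse arrays. HDAC7-deficient pro-B cells, from mice described as HDAC7 conditional, gave 3 arrays and wild-type pro-B cells gave 3 more. HDAC7 is a histone deacetylase, and the study's title names it as a repressor of lineage-inappropriate genes. The labels give no other treatment for either group, and they name no Cre driver, deleted exon, strain, age or sex. They call the arrays biological triplicates without saying whether each came from 1 mouse or a pool, so p-values measure the spread between these arrays.

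MHC class II molecules are pairs of an alpha and a beta chain that show peptides from endosomes to CD4 T cells. The invariant chain CD74 escorts new pairs to endosomes and blocks their groove, H2-DM exchanges its remnant for peptide, and H2-O inhibits H2-DM. CIITA is a coactivator that does not bind DNA itself: it is recruited by the RFX, CREB and NF-Y factors that sit on the X and Y boxes of class II promoters. Dendritic cells, macrophages and mature B cells carry much class II, whereas mouse B cell precursors carry little of it at the surface.

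The X and Y boxes can be read in the promoters of the members, which is why these stretches are shown. RefSeq promoter windows of mouse build GRCm38.p6, 250 bases before to 50 after a gene's start, were given for 5 members, all on chromosome 17. In H2-Aa, H2-Eb1, H2-Oa and H2-Ob the letters GCAAC, a core of the X box bound by RFX factors, were followed on the same strand by TGATTGG, a core of the Y box bound by NF-Y. Both cores are in capitals, each stretch reads 5′ to 3′ on the strand of its gene, and it ends before the gene's start.
H2-Aa, chr17:34287852-34287919, minus strand: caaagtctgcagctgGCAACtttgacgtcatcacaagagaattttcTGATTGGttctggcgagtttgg
H2-Eb1, chr17:34305761-34305827, plus strand: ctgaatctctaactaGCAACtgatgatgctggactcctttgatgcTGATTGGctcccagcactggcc
H2-Oa, chr17:34092288-34092355, plus strand: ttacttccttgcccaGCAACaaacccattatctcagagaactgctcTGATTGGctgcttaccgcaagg
H2-Ob, chr17:34238803-34238867, plus strand: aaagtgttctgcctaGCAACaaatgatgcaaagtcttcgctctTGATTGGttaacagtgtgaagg

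The cores start 31, 30, 31 and 28 bases apart in H2-Aa, H2-Eb1, H2-Oa and H2-Ob. Both strands were searched, and the motif letters were chosen after the sequences were seen. Of 32851 promoter windows, 35.2% held GCAAC, 7.82% held TGATTGG and 0.195% held both in this order with starts 25 to 45 bases apart. Neither of the 2 windows given for H2-DMa held the pair. Of the 45 measured genes with the pair, which include the 4 members shown, 29 had a change above 0, where 48% of all genes did. Their median was 0.20 with all arrays and -0.01 without wild-type replicate 3. Genes with the pair of cores thus lay on both sides of 0. One of them, H2-Eb2, a further class II beta chain gene, is described below with a change on the lower side.

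Before the values, the arrays need a description. Wild-type replicate 3 stood apart: its correlations with the other arrays across probe sets ran from 0.70 to 0.82, while the highest correlation of each other array was 0.98 or 0.99. The array medians lay between 5.83 and 6.15 on the log2 scale, and the interquartile range was 1.72 on wild-type replicate 3 against 2.27 to 2.93 elsewhere. In the brightest 25% of genes wild-type replicate 3 lay below the mean of wild-type replicates 1 and 2 by a median difference of -1.37. In all genes the median difference was 0.12. The arrays also divide by Xist, the RNA of the inactive X chromosome in female cells: HDAC7-deficient replicates 2 and 3 and wild-type replicate 3 are high in Xist, and HDAC7-deficient replicate 1 and wild-type replicates 1 and 2 are low. Hybridisation spike-ins divide the arrays in the same way, so sex and hybridisation cannot be told apart. Hdac7 read 9.95, 9.54 and 9.27 in HDAC7-deficient cells, against 9.06, 9.48 and 7.31 in wild-type cells, so it does not check the labels, and directions below are those of the arrays labelled HDAC7 deficient.

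All 8 class II genes had higher mean levels on the HDAC7-deficient arrays, by a median of 0.98 on the log2 scale, and none passed the test. In limma 0 of 17097 genes passed an adjusted p of 0.05 (0%), with 602 higher (3.52%) and 1563 lower (9.14%) at an unadjusted p under 0.05, and no class II member was among these. A change above 0 was seen in 48% of all genes. Most of the difference came from wild-type replicate 3: the median over the members was 0.30 without it, when all 8 members were still above 0 against 43.2% of all genes. The median over all genes was -0.03 with all arrays and -0.05 without wild-type replicate 3, and over the brightest 25% of genes it was 0.56 and 0.06. Of the 4275 genes in that brightest 25%, 3829 were above 0 with all arrays and 2560 without wild-type replicate 3. A count above 0 is thus common among bright genes, as most members are.

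**Figure D1:**
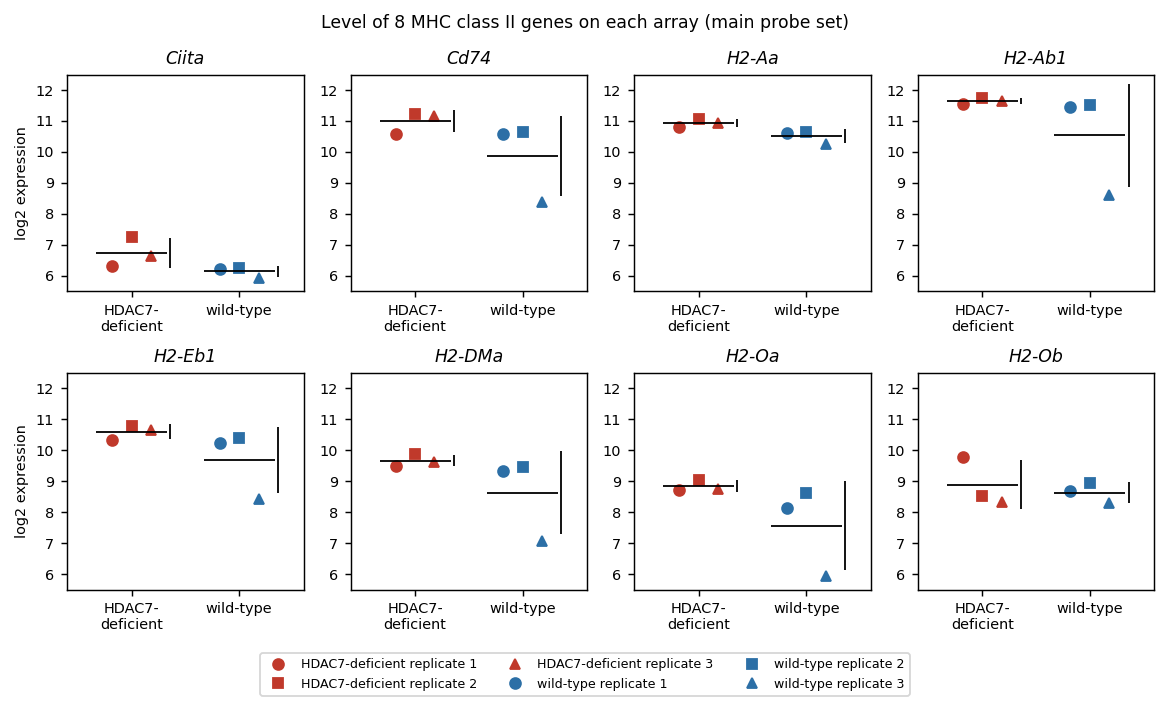
Level of the main probe set of each class II gene on each array, in log2 units, with HDAC7-deficient arrays in red and wild-type arrays in blue. Horizontal lines are group means and vertical lines 1 SD to each side (n = 3 each). Wild-type replicate 3, the blue triangle, is the lowest array in all 8 panels.

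Ciita, the coactivator, was dim. Its main probe set read 6.32, 7.27 and 6.62 on HDAC7-deficient replicates 1 to 3, against 6.23, 6.26 and 5.93 on wild-type replicates 1 to 3. The groups did not overlap, but the lowest HDAC7-deficient array and the highest wild-type array were close, and HDAC7-deficient replicate 2 was the highest. The change was 0.59 ± 0.29 (SE) with all arrays (limma adjusted p = 0.377) and 0.49 ± 0.29 without wild-type replicate 3 (limma adjusted p = 0.464). The other Ciita probe sets had changes of -0.15 and -0.17 at levels between 5.38 and 5.89, near or below the array medians, so the direction of Ciita rests on its brightest probe set.

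Cd74, the invariant chain, read 10.58, 11.24 and 11.17 on HDAC7-deficient arrays, against 10.57, 10.64 and 8.37 on wild-type arrays. HDAC7-deficient replicate 1 lay between wild-type replicates 1 and 2, so the groups overlapped, while HDAC7-deficient replicates 2 and 3 lay above all wild-type arrays. The group means were 11.00 ± 0.36 in HDAC7-deficient cells and 9.86 ± 1.29 in wild-type cells (SD, n = 3 each), and the change was 1.14 ± 0.64 (limma adjusted p = 0.388). It was 0.39 ± 0.18 without wild-type replicate 3 (limma adjusted p = 0.388), with a 95% interval from -0.03 to 0.81.

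H2-Aa and H2-Ab1 encode the alpha and beta chains of the I-A molecule. The main H2-Aa probe set read 10.80, 11.06 and 10.94 on HDAC7-deficient arrays, against 10.62, 10.65 and 10.26 on wild-type arrays. The groups did not overlap, with or without wild-type replicate 3. Its change was 0.42 ± 0.28 with all arrays (limma adjusted p = 0.412). Without wild-type replicate 3 it was 0.30 ± 0.10, with a 95% interval from 0.06 to 0.54, and it was the only member at an unadjusted p under 0.05, a level that 5.19% of all genes reached on the higher side (limma adjusted p = 0.299). H2-Ab1 read 11.56, 11.73 and 11.63 on HDAC7-deficient arrays, against 11.46, 11.51 and 8.62 on wild-type arrays. Its groups did not overlap either, yet without wild-type replicate 3 the gap between the lowest HDAC7-deficient and the highest wild-type array was small beside the change of 1.11 ± 0.77 that all arrays gave (limma adjusted p = 0.422). That change was 0.15 ± 0.07 without wild-type replicate 3 (limma adjusted p = 0.387).

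H2-Eb1, the beta chain of the I-E molecule, read 10.34, 10.79 and 10.66 on HDAC7-deficient arrays, against 10.23, 10.38 and 8.44 on wild-type arrays. HDAC7-deficient replicate 1 lay just under wild-type replicate 2, so the groups overlapped. The change was 0.92 ± 0.55 with all arrays (limma adjusted p = 0.397) and 0.29 ± 0.15 without wild-type replicate 3 (limma adjusted p = 0.410).

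H2-DMa, the alpha chain of the peptide exchanger H2-DM, read 9.49, 9.87 and 9.63 on HDAC7-deficient arrays, against 9.34, 9.45 and 7.07 on wild-type arrays. The groups did not overlap, and HDAC7-deficient replicate 1 lay just above wild-type replicate 2. The change was 1.05 ± 0.65 with all arrays (limma adjusted p = 0.401), and 0.27 ± 0.17 without wild-type replicate 3 (limma adjusted p = 0.472).

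H2-Oa and H2-Ob encode the chains of H2-O, the inhibitor of H2-DM, and they did not follow the same arrays. H2-Oa read 8.73, 9.05 and 8.74 on HDAC7-deficient arrays, against 8.13, 8.63 and 5.93 on wild-type arrays, with no overlap. H2-Ob read 9.78, 8.52 and 8.34 on HDAC7-deficient arrays, against 8.68, 8.93 and 8.28 on wild-type arrays. Here HDAC7-deficient replicate 1 was the highest array of all and the other HDAC7-deficient arrays lay below wild-type replicates 1 and 2. H2-Oa had the largest change of the 8 genes with all arrays, 1.28 ± 0.68 (limma adjusted p = 0.382), and 0.46 ± 0.23 without wild-type replicate 3. H2-Ob had the smallest, 0.25 ± 0.46 (limma adjusted p = 0.712), with a 95% interval from -0.83 to 1.33, and the change was 0.07 without wild-type replicate 3 and -0.20 without HDAC7-deficient replicate 1.

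Groups did not overlap for 5 of the 8 members, all higher in HDAC7-deficient cells, both with all arrays and without wild-type replicate 3. Over all genes such separation on the higher side was found for 9.45% with all arrays and for 11.8% without wild-type replicate 3. Among the 4275 genes of the brightest 25% it was found for 726 and 794. The members share one locus or one pathway, so they are not independent observations. In bulk RNA, fewer cells of a type and less RNA per cell cannot be told apart.

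**Figure D2:**
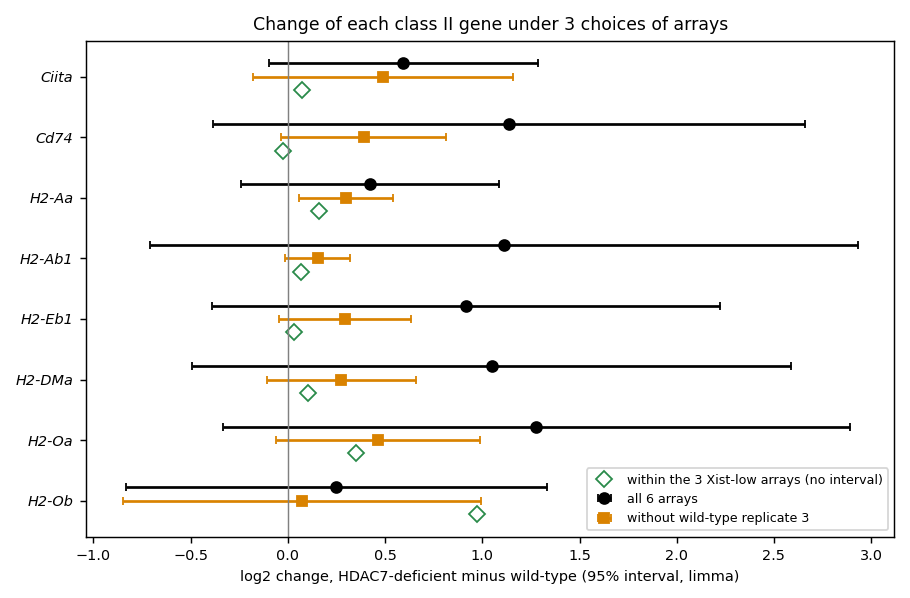
Change of each class II gene, HDAC7-deficient minus wild-type in log2 units, with all 6 arrays (black circles), without wild-type replicate 3 (orange squares), both with 95% limma intervals, and within the 3 Xist-low arrays (green open diamonds, no interval). Apart from H2-Ob, the values without wild-type replicate 3 lie between 0.15 and 0.49, and the Xist-low values between -0.02 and 0.35.

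Values within the Xist divisions are given as a description. An interaction term of genotype and division in limma passed for 6 of the 8 members and 27.3% of all genes. Of its 4 arms 2 hold a single array, wild-type replicate 3 and HDAC7-deficient replicate 1, which the fit assumes to vary like the others, so it does not show that the change differs between divisions. Among the Xist-low arrays, HDAC7-deficient replicate 1 exceeded the mean of wild-type replicates 1 and 2 by a median of 0.09 over the members. The differences were -0.02 for Cd74, 0.03 for H2-Eb1, 0.07 for Ciita and for H2-Ab1, 0.10 for H2-DMa, 0.16 for H2-Aa, 0.35 for H2-Oa and 0.97 for H2-Ob. On this single HDAC7-deficient array 7 of the members therefore stood at most 0.35 above the wild-type mean, whereas H2-Ob stood apart. Among the Xist-high arrays the median was 2.49, but the wild-type side is wild-type replicate 3 alone. The HDAC7-deficient arrays can be set against each other without it: the mean of replicates 2 and 3 exceeded replicate 1 by 0.63 for Ciita, 0.62 for Cd74 and 0.39 for H2-Eb1, and by 0.13 to 0.26 for H2-Ab1, H2-Oa, H2-Aa and H2-DMa. H2-Ob ran the other way, at -1.35. HDAC7-deficient replicates 2 and 3 both lay above all 3 Xist-low arrays for 7 of the 8 members, against 12.1% of all genes. Among lists described below the same was found for 5 of 13 class I genes, all 7 plasmacytoid dendritic cell genes and 0 of 12 pro-B genes. The share among bright genes was not computed. HDAC7-deficient replicates 2 and 3 are both HDAC7 deficient and Xist-high, and without a second Xist-high wild-type array these cannot be told apart. When the Xist division was a block and wild-type replicate 3 was left out, 0 members and 4 of all genes (0.0234%) passed.

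Probe sets of a member agreed in direction for H2-Aa, H2-Ab1, H2-DMa and H2-Ob, and differed in how far wild-type replicate 3 fell. Of the 16 member probe sets 14 had a change above 0, with all arrays and without wild-type replicate 3, the exceptions being the dim Ciita probe sets. None of the 16 passed in the limma fit over 45037 probe sets, where 0% passed (smallest adjusted p among members 0.328, and 0.234 without wild-type replicate 3). For H2-Aa, wild-type replicate 3 lay below the mean of the other wild-type arrays by -0.37 in the main probe set (1438858_PM_x_at), by -3.47 in the next (1452431_PM_s_at) and by -0.50 in the dimmest (1443783_PM_x_at). The second H2-Aa probe set read 10.32, 10.80 and 10.60 on HDAC7-deficient arrays, against 10.03, 10.19 and 6.64 on wild-type arrays. The dimmest read 7.25, 7.71 and 7.60 on HDAC7-deficient arrays, against 6.73, 6.84 and 6.28 on wild-type arrays. All 3 H2-Aa probe sets thus kept the groups apart, and without wild-type replicate 3 their changes were 0.30, 0.46 and 0.74. Of the 16 member probe sets 7 kept the groups apart on the higher side, with and without wild-type replicate 3. Over all probe sets 11.5% did so, or 16.2% without wild-type replicate 3. Probe sets of 1 gene on the same arrays are not independent observations. The other H2-Ab1 probe sets had changes of 0.55 and 0.52 without wild-type replicate 3, against 0.15 in the brightest. The second H2-Ob probe set read 9.20, 8.73 and 8.70 on HDAC7-deficient arrays, against 8.81, 8.87 and 7.11 on wild-type arrays, and again put HDAC7-deficient replicate 1 highest. Probe sets with the suffix x or s can read related sequences by the maker's naming, and class II chains are a gene family, so the split between family members is uncertain.

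**Figure D3:**
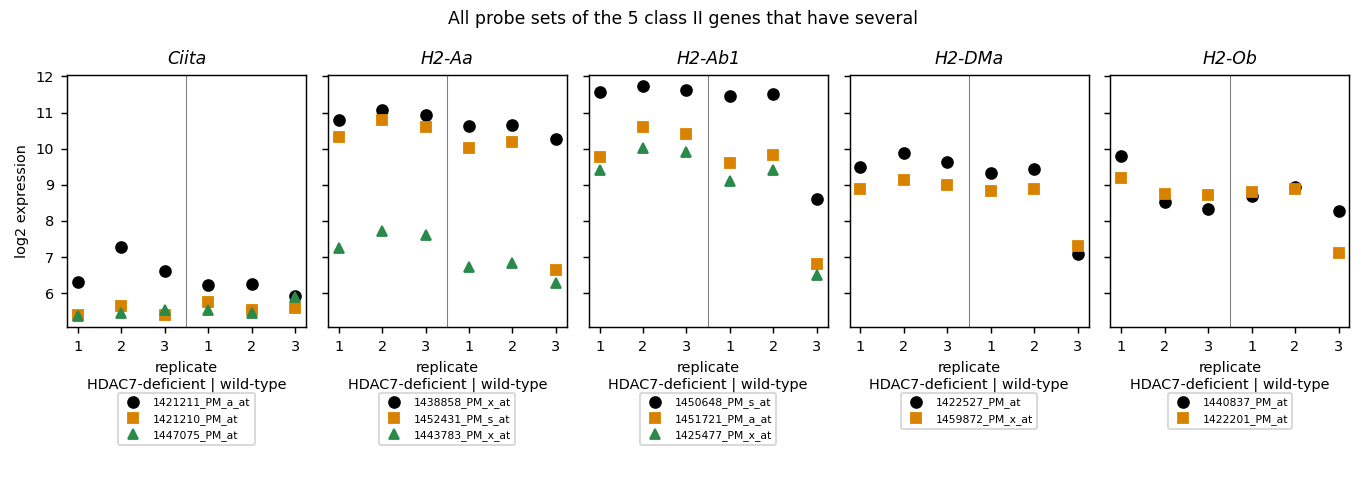
Level of every probe set of the 5 class II genes with more than 1 probe set, in log2 units, by replicate, HDAC7-deficient on the left and wild-type on the right of each panel. The H2-Aa probe sets read between 6.28 and 10.26 on wild-type replicate 3, where the second of them lies -3.47 below the mean of the other wild-type arrays.

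The other class II chain genes split in direction. H2-DMb1 and H2-DMb2 encode beta chains of H2-DM. H2-DMb2 read 9.49, 10.64 and 10.52 on HDAC7-deficient arrays, against 9.44, 9.67 and 7.59 on wild-type arrays. H2-DMb1 read 7.45, 8.35 and 8.05 on HDAC7-deficient arrays, against 7.24, 7.52 and 5.48 on wild-type arrays. In both genes HDAC7-deficient replicate 1 lay among the wild-type arrays and replicates 2 and 3 above them, as for Cd74. Their changes were 1.32 ± 0.63 for H2-DMb2 and 1.20 ± 0.57 for H2-DMb1 with all arrays, and 0.66 and 0.57 without wild-type replicate 3. H2-Eb2, and H2-Ea, which is silent in several inbred strains, were dim and had changes of -0.71 and -0.58, or -0.28 and -0.32 without wild-type replicate 3. None of the 4 passed (smallest limma adjusted p = 0.377).

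Of 7 genes that process or turn over class II, none passed and 6 had a change above 0, with a median of 0.58, or of 0.28 without wild-type replicate 3, when all 7 were above 0. Marchf1, a ubiquitin ligase that removes class II from the surface, read 7.76, 8.19 and 7.96 on HDAC7-deficient arrays, against 7.01, 7.12 and 7.997 on wild-type arrays. In this gene wild-type replicate 3 was the high wild-type array, and the change was 0.60 with all arrays and 0.91 without it (limma adjusted p = 0.393 and 0.214). Its relative Marchf8 had a change of 0.30 with no overlap. The lysosomal proteases cut the invariant chain: Ctsl had a change of 1.45, or 0.28 without wild-type replicate 3, and Ctss of 0.18, or 0.09. Lgmn, a further protease, had 0.58, and Ifi30, a thiol reductase that opens antigens, had 1.05, or 0.08 without wild-type replicate 3.

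All 8 promoter factors had a change above 0, with a median of 0.54, or of 0.14 without wild-type replicate 3, when 6 were above 0. None passed. The RFX subunits read as follows. Rfxap had 6.59, 6.46 and 6.31 on HDAC7-deficient arrays, against 6.01, 6.11 and 5.61 on wild-type arrays, and a change of 0.54 ± 0.22 (limma adjusted p = 0.377). Rfx5 had a change of 0.54 and Rfxank of 0.51. The Rfxap and Rfx5 groups did not overlap, with HDAC7-deficient replicate 1 the highest array, which is not the order seen in Cd74 or Ciita. Nfya, Nfyb and Nfyc, the NF-Y subunits, had changes of 1.45, 0.51 and 0.41, or of 0.13, -0.04 and -0.05 without wild-type replicate 3.

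Among 15 measured genes that act on Ciita, 12 had a change above 0, with a median of 0.75, or of 0.20 without wild-type replicate 3, and none passed. Ifng, the cytokine that induces Ciita in many cell types, read 6.20, 8.21 and 7.76 on HDAC7-deficient arrays, against 5.62, 5.95 and 5.96 on wild-type arrays. The groups did not overlap and HDAC7-deficient replicates 2 and 3 were high. Its change was 1.55 ± 0.51 with all arrays and 1.61 without wild-type replicate 3 (limma adjusted p = 0.377 and 0.276). Ifngr2, a chain of its receptor, had a change of 0.87, or of 0.59 without wild-type replicate 3. Ifngr1, the other chain, had 0.88, or 0.05. Irf1, which acts on the interferon-responsive Ciita promoter, read 9.44, 9.97 and 9.98 on HDAC7-deficient arrays, against 9.38, 9.56 and 8.52 on wild-type arrays. The change of Irf1 was 0.64, or 0.33 without wild-type replicate 3. Of the B cell and myeloid activators of Ciita, Spi1 (PU.1) had 0.33, Irf4 0.20, Irf8 0.07 and Pax5 0.24 without wild-type replicate 3. The B cell factor Ebf1 went the other way, at -0.13 with all arrays and -0.09 without wild-type replicate 3. Without that array Tcf3 had 0.20, Irf2 0.78, Bcl6 0.28 and Foxo1 0.11. Prdm1, a repressor of Ciita in plasma cells, had -0.61, or -0.21 without wild-type replicate 3, and Zbtb46, a dendritic cell factor, had -0.62 with no overlap, or -0.44.

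The class I arm of presentation was lower on wild-type replicate 3 as well. Of its 13 measured genes 12 had a change above 0 with all arrays, with a median of 0.9997, but 7 without wild-type replicate 3, with a median of 0.01. None passed (smallest limma adjusted p = 0.377). The class I heavy chains H2-K1 and H2-D1 had changes of 0.64 and 1.24, or of -0.05 and 0.01 without wild-type replicate 3. Psmb8 and Psmb9, subunits of the immunoproteasome, had -0.05 and -0.01 without it. Nlrc5, the class I counterpart of CIITA, read 8.53, 9.01 and 8.68 on HDAC7-deficient arrays, against 7.61, 8.24 and 6.51 on wild-type arrays, with no overlap. Its change was 1.29 with all arrays and 0.81 without wild-type replicate 3 (limma adjusted p = 0.377 and 0.273). H2-Q4, whose family of near-identical genes makes its reading uncertain, had 1.72, or 0.63, and H2-M3, a heavy chain that presents formylated peptides, had 0.81, or 0.36, without overlap in either case. Whether class I and class II genes differ in their change was not tested.

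**Figure D4:**
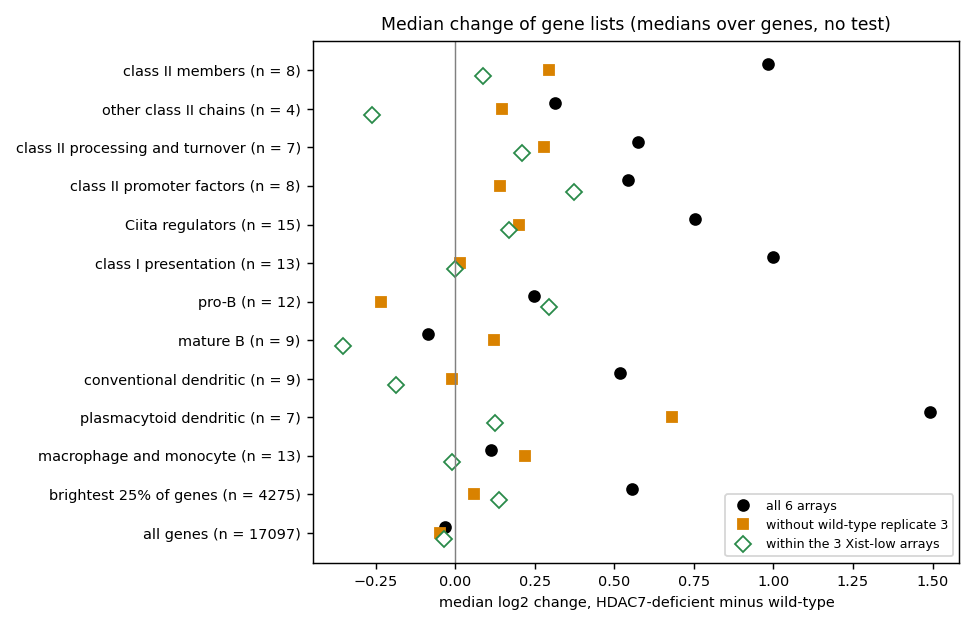
Median log2 change, HDAC7-deficient minus wild-type, of the class II genes, of related gene lists, of cell type marker lists, of the brightest 25% of genes and of all genes, with all 6 arrays (black), without wild-type replicate 3 (orange) and within the 3 Xist-low arrays (green, open). The class II members lie at 0.98, 0.30 and 0.09, and the class I genes at 0.9997, 0.01 and -0.0007.

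Pro-B markers were read on all arrays, but most were lower on wild-type replicate 3. Of 12 measured, Vpreb1, a surrogate light chain gene, read 10.73 to 11.48 on HDAC7-deficient arrays, against 9.97 to 11.53 on wild-type arrays. Dntt read 10.48, 10.63 and 7.37 on wild-type replicates 1 to 3, whereas Ebf1 and Ptprc were not lower on replicate 3. The summed log2 level was 13.31 to 13.99 on HDAC7-deficient arrays, against 13.62, 13.79 and 12.63 on wild-type replicates 1 to 3. Between the groups 10 of the 12 were higher on HDAC7-deficient arrays, with a median of 0.25, against 3 and a median of -0.23 without wild-type replicate 3. Within the HDAC7-deficient group pro-B genes were lower on the arrays where most class II members were higher. The mean of HDAC7-deficient replicates 2 and 3 lay below replicate 1 for 11 of the 12, by -1.88 for the recombinase gene Rag1 and -2.05 for Rag2. Over all genes that mean lay above replicate 1 for 9188 of 17097. Replicate 1 is a single array, and the contrast follows the Xist division. H2-Ob went with the pro-B genes, being highest on HDAC7-deficient replicate 1.

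Of the marker lists of other cells that carry class II, the plasmacytoid dendritic list lay higher in all its measured genes and the others were mixed. Of 10 plasmacytoid dendritic cell genes listed, Siglech, Bst2 and Runx2 were not measured. All 7 measured were higher, with and without wild-type replicate 3, against 48% and 43.2% of all genes. In the brightest 25% it was 3829 and 2560 of 4275 genes. The list's median change was 1.49, or 0.68 without wild-type replicate 3. Within the Xist-low arrays it was 0.12, with Tlr9 at -0.29 and Irf7 at -0.14. The summed log2 level of the list was 12.04 to 12.90 on HDAC7-deficient arrays and 9.79 to 12.16 on wild-type arrays. HDAC7-deficient replicates 2 and 3 lay above all Xist-low arrays for all 7, against 12.1% of all genes. Among the 7, Tlr7, an RNA sensor, read 7.68, 9.21 and 9.16 on HDAC7-deficient arrays, against 6.82, 7.61 and 7.14 on wild-type arrays. Of 9 conventional dendritic cell genes 5 were higher, with a median of 0.52, against 4 and a median of -0.01 without wild-type replicate 3, and the summed level was 11.82 to 12.32 on HDAC7-deficient arrays and 10.59 to 11.95 on wild-type arrays. The integrin gene Itgax had a change of 1.55 with no overlap, or 0.69 without wild-type replicate 3, and Clec10a, Flt3 and Sirpa had 1.30, 0.69 and 0.52, or 0.12, 0.29 and 0.22. Zbtb46 and Xcr1 were dim, with changes of -0.62 and -0.57, and Batf3 had -0.71. Genes of this list therefore lay on both sides of 0. Of 13 macrophage and monocyte genes 8 were higher, with a median of 0.11, against 10 and a median of 0.22 without wild-type replicate 3, and the summed level was 11.84 to 12.32 on HDAC7-deficient arrays and 11.53 to 11.83 on wild-type arrays. Itgam, an integrin gene, had a change of 1.51 with no overlap, or 1.31 without wild-type replicate 3 (limma adjusted p = 0.377 and 0.252). Cd68 had 1.31, or 0.30, and Lyz2, which encodes lysozyme, had 0.22, or 0.26. On the lower side Mertk had -0.91 with no overlap, or -0.42 without wild-type replicate 3. Adgre1, Cd14, Marco and Fcgr1 had -0.26, -0.24, -0.12 and -0.03, or 0.22, 0.02, -0.05 and 0.10. Mertk and Marco read below 5 on every HDAC7-deficient array. Of 9 mature B genes 3 were higher, with a median of -0.08, against 6 and a median of 0.12 without wild-type replicate 3, and the summed level was 11.46 to 11.66 on HDAC7-deficient arrays and 11.21 to 12.12 on wild-type arrays. Ms4a1, which encodes the B cell antigen CD20, read 5.15, 7.40 and 6.87 on HDAC7-deficient arrays, against 4.57, 5.35 and 11.35 on wild-type arrays. Wild-type replicate 3, the array lowest in class II, was thus by far the highest in this marker, but the list was mixed on that array. Cd72 and Tnfrsf13c were lowest on wild-type replicate 3, at 8.88 and 7.83. Cr2, Fcer2a, Cd83 and Fcrl1 were highest on it, and Cd22 and Cd40 lay between. The part of these cell types in the class II levels was not tested.

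The genes whose pattern was nearest to that of the class II members depended on wild-type replicate 3. Likeness was the root-mean-square difference between a gene's log2 profile, centred on its own mean, and the median of the centred member profiles, over 15431 genes. Over 6 arrays the nearest were Atp13a2, Gas7, Rhobtb2, Sla and Stx16, at differences of 0.06 to 0.07. Over the 5 arrays without wild-type replicate 3 they were Noxo1, Abca3, Ankrd27, H2-T24 and Treml2, at 0.02 to 0.03, and none was shared. H2-T24 is a class I gene of the same complex. Nearest to Ciita were Oas3, Il4ra and Mx2 over 6 arrays and Oas3, Opn3 and Ifi213 over 5, at differences of 0.06 to 0.09. Oas3 and Mx2 are interferon-induced antiviral genes. Among the members themselves H2-DMa lay nearest to the member median over 5 arrays, at 0.01, and H2-Ob farthest, at 0.59.

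Array weights estimated by limma, which lower the part of an outlying array, changed the calls: 8449 of all 17097 genes passed. Of the 8 members 6 were among them, with changes of 0.38 to 0.82 (limma adjusted p = 0.00454 to 0.0422). With so many genes called, these calls are not particular to the members. Those weights were 8.68, 0.47 and 0.07 for wild-type replicates 1 to 3, and 0.83, 4.11 and 0.998 for HDAC7-deficient replicates 1 to 3. The weighted changes thus rest mostly on HDAC7-deficient replicate 2 and wild-type replicate 1. The test treats the weights as known although they were estimated from the same arrays.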

How the data were processed

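RNA of 6 sorted pro-B samples was amplified by whole transcriptome amplification and hybridised to Affymetrix mouse arrays, per the labels' protocols. For each array the authors deposited a log2 value per probe set. How they normalized it is not given in the sources used here. That the scale is log2 follows from the range of the values. Of 45141 probe sets 104 controls were set aside. A platform annotation gave 28898 of the others 1 symbol, 551 several and 15588 none, and symbols were updated by Entrez number through RefSeq (GRCm38.p6). Each gene was read from its probe set with the highest mean.

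Groups were compared across all genes with limma 3.58.1 in R 4.3.3 (intensity trend, two-sided, Benjamini-Hochberg, threshold 0.05, no dim filter), and probe sets likewise. Changes are HDAC7 deficient minus wild type ± SE. Array number limits the precision. The fit was checked on simulated data with the spread of each gene. Of simulated log2 changes of 1, 10.4% passed with all 6 arrays and 46.3% without wild-type replicate 3. In the simulation a change of 1, near the members' median of 0.98 with all arrays, was thus often missed. Without wild-type replicate 3 that median was 0.30, a size that was not simulated. The noise was drawn for each gene apart, whereas wild-type replicate 3 differs in many genes at once. The simulated shares therefore do not say whether changes were missed in these data. All 8 members, every probe set, the 3 genes of smallest p per related list, marker genes and the nearest profiles are named by rule. Further genes of these lists were named after their values were seen. Members and lists were chosen with earlier results of these data known. The alternatives tried were each array left out, the replicate number or the Xist division as a block, other normalizations, filters, probe set choices, variance models, weights and a threshold of 0.1. Figures used matplotlib 3.10.9 in Python 3.11.15.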

Additional observations from a re-analysis of the deposited data

Results flagged for a closer look

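For 6 members an interaction term of genotype and Xist division passed in limma. The Xist-high minus Xist-low difference of the change was 2.997 for H2-Ab1, 2.86 for Cd74, 2.61 for H2-Oa, 2.58 for H2-DMa, 2.26 for H2-Eb1 and 0.58 for H2-Aa. For Ciita and H2-Ob it did not pass. The term passed for 27.3% of all genes. Wild-type replicate 3 is the only Xist-high wild-type array and HDAC7-deficient replicate 1 the only Xist-low HDAC7-deficient array. Their own spread does not enter the error, which comes from the other 2 arms, so the term does not show that the change differs between the divisions, and the division and the low level of wild-type replicate 3 cannot be told apart.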

How the results depend on the processing

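The members' median change of 0.98 ranged from 0.30 (without wild-type replicate 3) to 1.36 (without wild-type replicate 2) when 1 array was left out, and was 0.0870 with the Xist division as block but no wild-type replicate 3. Genes past the threshold numbered 0 with all arrays, 1 with the replicate block, 4 with the Xist block without wild-type replicate 3, none a member, and 8449 with array weights. The default weight estimate stopped before convergence, so a gene-by-gene estimate, chosen after seeing the data, was used. With weights Ciita had 0.80, Cd74 0.57, H2-Aa 0.38, H2-Eb1 0.48, H2-DMa 0.45 and H2-Oa 0.82. H2-Ob turned to -0.20 without HDAC7-deficient replicate 1, -0.23 after quantile normalization and -0.0245 with weights (0.52 without HDAC7-deficient replicate 3), and Cd74 to -0.0242 with the Xist block without wild-type replicate 3. Members without overlap numbered 3 after quantile normalization and with the mean over probe sets, against 5. Whether replicate numbers pair the arrays is not settled with so few arrays. Same-numbered deviations correlated at 0.10, 0.21 and 0.48, and 3 of 6 arrays correlated best with their own number. The replicate block moved no member past the threshold. Without a detection call, signal over background is unknown, which limits Ciita most.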
